A study of Arabidopsis thaliana with 12 samples.

Results

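The response of Arabidopsis thaliana roots labelled trm4b-1 to paraquat was described from 1 table of the study, the comparison of trm4b-1 roots on paraquat with trm4b-1 roots on control medium. All genes that this comparison lists were taken as members. They number 4087 of the 33602 genes tested, and 8607 genes are listed in at least 1 of the study's 5 comparisons. Of the 4087, 3040 are called changed here, at an adjusted p-value under 0.05 in the authors' deposited table, 9.05% of the genes tested.

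The study sequenced total RNA, depleted of ribosomal RNA, from roots of seedlings of cultivar Col-0 at 6 days after germination on 1/2 MS plates. WT and trm4b-1 plants were grown under control conditions or with 0.01 uM paraquat as the oxidative stress, which gave 12 samples in 4 groups of 3. The series' design text calls the 3 replicates biological, and the comparison described here uses 6 samples, 3 on each side. All groups share the Col-0 background, and the labels describe the trm4b-1 allele no further. The files used here hold the authors' comparisons and no value for any single sample. Levels, depths and the overlap of groups therefore cannot be given, and the p-values come from the authors' fit, whose recovered degrees of freedom, 15.3 with 8 residual, pool the spread over all 4 groups.

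Paraquat is a herbicide that takes electrons from electron transport chains in chloroplasts and mitochondria and passes them to oxygen, which yields superoxide. In roots, which lack green plastids, mitochondria are a main place where this occurs. Plants answer with alternative respiration, conjugation and export of toxic compounds, and enzymes that remove superoxide and peroxide, several of which need copper or iron. TRM4B is an enzyme that methylates cytosines in RNA.

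Log2 fold changes below are read from the authors' deposited table as paraquat minus control, and ± marks the standard error that the deposited p-value implies for each change. Adjusted p-values are those of limma, the tool that the submitters' processing notes name, and they follow the Benjamini-Hochberg method. "Rose" and "fell" mean an adjusted p under 0.05. A gene that the WT comparison does not list had an adjusted p of 0.1 or more there. Its WT value is called rebuilt where it was taken as the trm4b-1 change minus the deposited interaction, which is the difference of the paraquat responses, trm4b-1 minus WT. In whole roots, fewer cells of a type and less RNA per cell cannot be told apart.

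By the authors' deposited table, 1586 genes rose, 4.72% of those tested, and 1454 fell, 4.33% of those tested. Most changes were small, with a median log2 change of 0.84 among genes that rose and -0.69 among genes that fell, and 64.8% of the called genes changed by less than 1. The tail was longer upwards. Changes of at least 2 on the log2 scale were found for 275 genes that rose and 95 that fell, and changes of at least 4 for 41 and 10. Genes just inside the limit were J2 at 0.43 ± 0.13 and AT3G57360 at -0.67 in the authors' deposited table, and just outside were AT1G17430 at -0.49 and NFD6 at 0.47. The label check gave an RNA of TRM4B (chromosome 2, 9504659 to 9508875, minus strand) that rose by 0.99 ± 0.08 with paraquat. The authors' deposited table also lists it as 2.89 higher in these libraries than in WT under control conditions, so the label does not go with less TRM4B RNA, and directions between the genotypes are given by label. Whether libraries were exchanged between the labels was not tested, and an exchange would swap the values given here and in WT.

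Gene lists for 70 pathways, families and cell types were counted in the comparison, and 660 distinct members of them were called. The plot of list counts shows how unevenly the response fell on them. At least 60.0% of the members were called for evening clock genes, stimulon targets of mitochondrial dysfunction, morning clock genes, glutamate receptor-like channels, clock outputs, copper deficiency genes and endoplasmic reticulum stress genes. The mitochondrial genome had 44 of 67 called, but its members are only genes listed in at least 1 comparison. That share therefore cannot be ranked with the others. Core histones had 1 of 47 members called, ribosomal proteins 23 of 344, and inhibitors of cyclin-dependent kinases with endoreduplication genes 0 of 21 at the adjusted threshold. Those 3 counts are 2.13%, 6.69% and 0.0% of the members, beside 9.05% of all genes tested. Genes with an adjusted p of 0.1 or more are not listed, so how many of the 21 had an unadjusted p under 0.05 by limma is unknown.

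**Figure D1:**
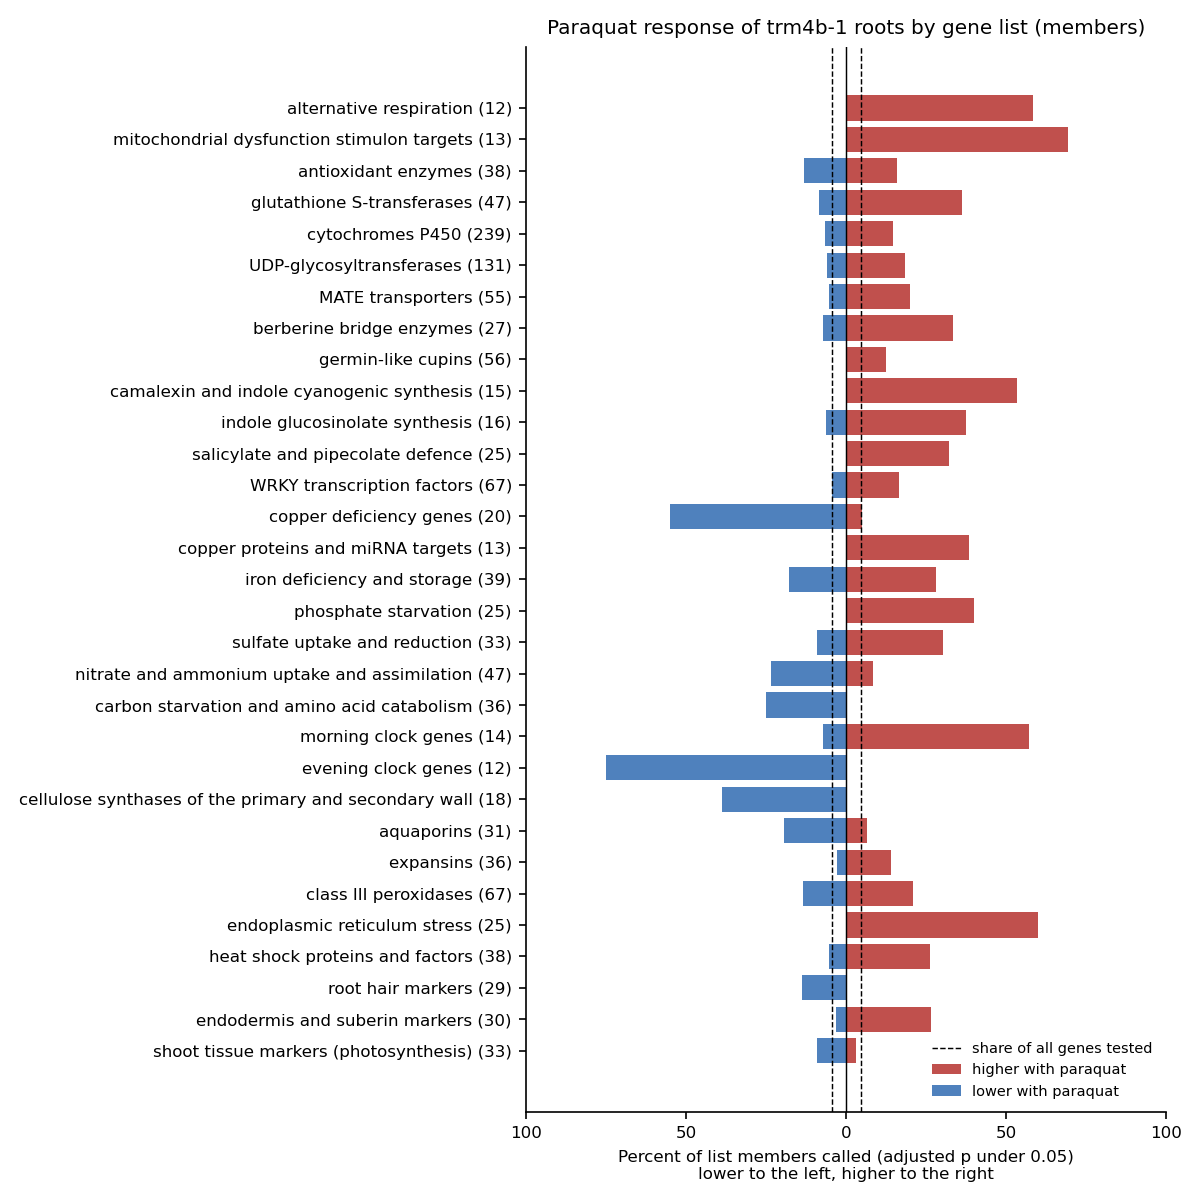
Members that rose (red) and fell (blue) on paraquat under the trm4b-1 label, as a percent of each list's members, with the share of all tested genes as dashed lines. Evening clock genes, at 9 of 12, and copper deficiency genes, at 11 of 20, stand out downwards, and endoplasmic reticulum stress genes, at 15 of 25, stand out upwards.

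Mitochondria that are short of electron transport capacity signal to the nucleus through NAC transcription factors, which are held at the endoplasmic reticulum until they are released and bind a short promoter motif. Of 13 stimulon targets of this signalling, 9 rose, none fell, and the median of the called members was 2.08 in the authors' deposited table. Genes of alternative respiration, the oxidases and NAD(P)H dehydrogenases that bypass the proton-pumping complexes, rose for 7 of 12 members with a median of 1.15. Regulators of the signalling rose for 6 of 14 members with a median of 0.52. No member of these 3 lists fell at the threshold, but the stimulon target TIM17-1 was listed at -1.49 ± 0.47 (adjusted p 0.0654, limma).

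The motif has the letters CTTG, then 5 bases of any kind, then CAAG or CACG. It was searched for on both strands in the 250 bases upstream of each RefSeq gene start (assembly TAIR10.1), and 1.2% of 27443 protein-coding genes hold it. Among genes that rose the share was 2.96%, among genes that fell 0.792%, and among the 262 protein-coding genes that rose by at least 2 it was 5.34%. Of the 9 stimulon targets that rose, 3 hold it. The last 120 bases before the gene start are shown for 4 genes that rose and hold the motif, which is in capitals, because the spacing of the motif from the start can be compared between them. A match describes letters and is not evidence of binding.
AT2G21640, chr2:9254258-9254377, plus strand: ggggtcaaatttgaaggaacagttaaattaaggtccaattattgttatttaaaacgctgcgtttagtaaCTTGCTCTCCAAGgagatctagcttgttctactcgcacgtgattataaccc
AT5G51440, chr5:20891043-20891162, plus strand: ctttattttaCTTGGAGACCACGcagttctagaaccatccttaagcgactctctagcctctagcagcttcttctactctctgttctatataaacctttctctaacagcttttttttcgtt
NDB2, chr4:2572307-2572426, plus strand: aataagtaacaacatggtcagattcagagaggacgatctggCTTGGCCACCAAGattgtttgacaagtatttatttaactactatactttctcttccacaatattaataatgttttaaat
NDA1, chr1:2203984-2204103, plus strand: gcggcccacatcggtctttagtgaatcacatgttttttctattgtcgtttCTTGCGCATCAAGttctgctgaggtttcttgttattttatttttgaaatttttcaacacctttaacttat

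AT2G21640, which RefSeq describes as a marker for oxidative stress response, rose by 1.94 ± 0.11 in the authors' deposited table. AT5G51440, an HSP20-like chaperone, rose by 2.08 ± 0.15. NDB2, an external NAD(P)H dehydrogenase, rose by 1.16 ± 0.09 in that table, and NDA1, an internal one, by 1.72 ± 0.20. The nearest base of the motif lies 38, 97, 66 and 57 bases from the gene start in AT2G21640, AT5G51440, NDB2 and NDA1.

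AOX1A, the alternative oxidase most often used as a reporter of this signalling, rose by 1.15 ± 0.08 in the authors' deposited table, and its paralog AOX1D by 5.07 ± 0.64. NAC013, a regulator that binds the motif, rose by 1.52 ± 0.11. OM66, an ATPase of the outer mitochondrial membrane, rose by 2.3 ± 0.17, and SOT12, a sulfotransferase, by 2.03 ± 0.12. Enzymes, a regulator and an outer membrane protein thus rose together.

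In WT, whose samples are not used in the trm4b-1 comparison, the same 3 lists had 11 of 13, 6 of 12 and 5 of 14 members that rose. NDB4 rose by 0.96 ± 0.16 here and by 4.33 ± 0.36 in WT in the authors' deposited tables, and the interaction was -3.37 (adjusted p 0.000803, limma). NDB3 rose by 0.95 ± 0.26 and by 4.06 ± 0.40. Both genes were listed as higher in trm4b-1 than in WT under control conditions in the authors' deposited table, NDB4 by 4.13 and NDB3 by 3.13, a comparison that shares its samples with both of these. AT2G21640 rose by 1.94 against 4.65 in WT, AT5G09570, a Cox19-like CHCH family protein, by 3.18 against 5.35, and the MATE efflux protein AT2G04050 by 3.57 against 6.69. These 3 were also listed as higher in trm4b-1 under control conditions, by 3.23, 2.82 and 3.51 in the authors' deposited table. TIM17-1 rose by 2.15 ± 0.53 in WT, with an interaction of -3.64 (adjusted p 0.0425, limma), and was listed as 3.09 higher in trm4b-1 under control conditions. AOX1A rose by 1.15 and 1.13, and AOX1D by 5.07 and 4.74. The interaction table does not list either oxidase.

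**Figure D2:**
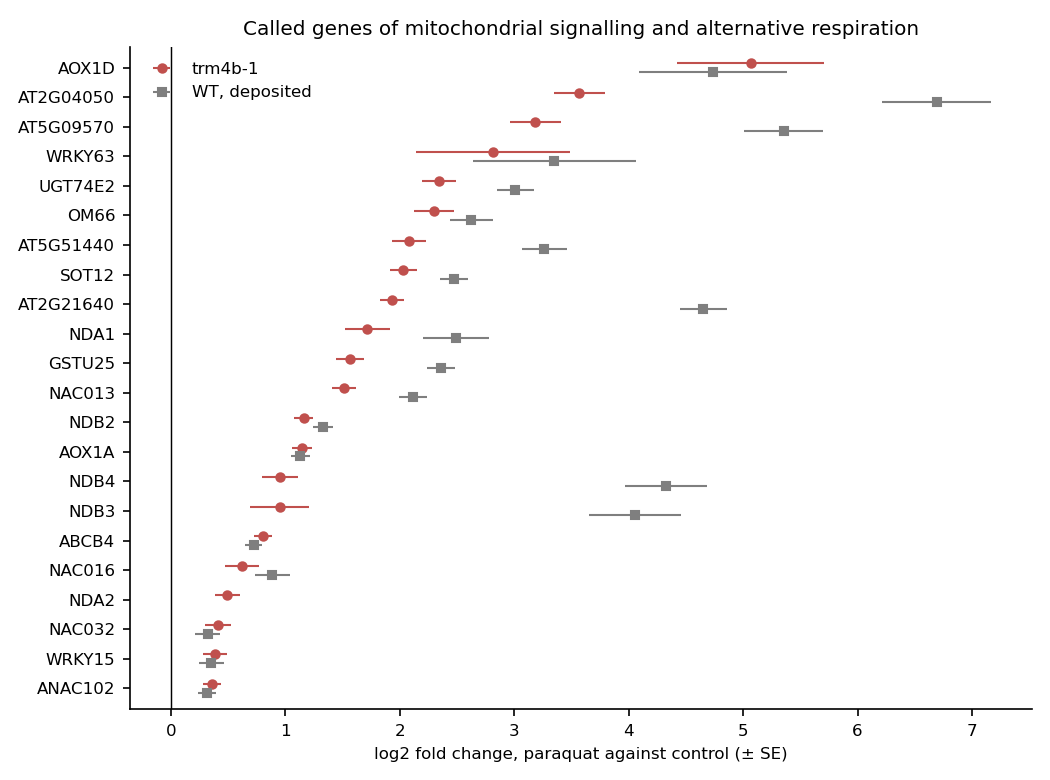
Log2 change on paraquat (horizontal axis, ± SE) of called genes of mitochondrial signalling and alternative respiration, for trm4b-1 (red) and WT (grey) labels, from the authors' deposited tables. AOX1A lies at 1.15 and 1.13, while NDB4 lies at 0.96 and 4.33 and AT2G21640 at 1.94 and 4.65.

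Detoxification families rose more often than they fell. Glutathione S-transferases, which conjugate glutathione to reactive compounds, rose for 17 and fell for 4 of 47 members. GSTF3 rose by 5.26 ± 0.46 in the authors' deposited table, and GSTU12 by 4.26 ± 0.49. GSTF6 and GSTF7 are neighbours and close copies that may share reads, so their values of 3.83 and 3.65 are uncertain. GSTF14, of the phi class, fell by 1.36 ± 0.37 on the log2 scale.

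UDP-glycosyltransferases, which attach sugars to small molecules, rose for 24 and fell for 8 of 131 members. UGT73C6 rose by 5.62 ± 0.64 in the authors' deposited table and belongs to a cluster of near copies, which may share reads. Cytochromes P450 rose for 35 and fell for 16 of 239, a called share of 21.3%. CYP71B24 rose by 5.43 ± 0.51 and CYP712A1 by 3.90 ± 0.45 in that table, while CYP98A9 fell by 2.36 ± 0.67. Exporters of the MATE family rose for 11 and fell for 3 of 55, and ABC transporters rose for 16 and fell for 7 of 127. AT2G04070 rose by 3.95 ± 0.63 in the authors' deposited table, and ABCG40 rose by 2.08 ± 0.37, while FRD3, which loads citrate into the xylem, fell by 1.03 ± 0.10.

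Germin-like cupins, berberine bridge enzyme-like oxidases and class III peroxidases act largely outside the cell. AT5G38910, a germin-like cupin on chromosome 5 at 15578811 to 15579584, rose by 8.21 ± 0.51 in the authors' deposited table, and 7 of 56 germin-like cupins rose and none fell. Berberine bridge enzyme-like oxidases rose for 9 and fell for 2 of 27. AT1G26410 rose by 5.25 ± 0.51 and AT1G26420 by 3.03 ± 0.19, and these neighbours of AT1G26380 and AT1G26390 are alike enough to share reads. Genes counted as class III peroxidases, a family that oxidises phenolics in the wall, split into 14 that rose and 9 that fell of 67. RefSeq describes those called as peroxidase superfamily proteins, and whether each, such as DOX1, is of class III was not checked. PRXCB, a peroxidase outside this list, rose by 0.74 ± 0.12. AT3G03670 rose by 4.40 ± 0.55 and PER4 by 2.02 ± 0.15 in the authors' deposited table, while AT2G37130 fell by 1.19 ± 0.14.

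Antioxidant enzymes were mixed, with 6 that rose and 5 that fell of 38. GR1, the cytosolic glutathione reductase, rose by 1.07 ± 0.08 in the authors' deposited table, and MDAR1, which recycles ascorbate, rose by 0.51 ± 0.09. The catalase CAT3 fell by 0.72 ± 0.16, and GPX6 fell by 0.35 ± 0.08. The remaining large changes in this list concerned superoxide dismutases and their copper chaperone, given with copper below.

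Defence metabolism was counted by route. Camalexin and related indole cyanogenic compounds are antimicrobial products made from tryptophan. Of 15 genes of these routes, 8 rose with a median of 4.73 in the authors' deposited table. CYP71A13 (chromosome 2, 13109794 to 13112011) rose by 6.34 ± 0.55, and CYP71A12 by 5.63 ± 0.27, and both form indole-3-acetonitrile and are close enough in sequence to share reads. CYP82C2, which hydroxylates an indole cyanogenic intermediate, rose by 6.25 ± 0.57, and CYP79B2, which starts the route from tryptophan, by 1.34 ± 0.13.

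Indole glucosinolate genes rose for 6 and fell for 1 of 16. CYP81F2, which hydroxylates the indole ring, rose by 3.20 ± 0.24 in the authors' deposited table, and IGMT4, a methyltransferase of the following step, by 1.73 ± 0.13. PEN3, a transporter of the plasma membrane, fell by 0.31 ± 0.09. Aliphatic glucosinolate genes rose for 3 of 17, with BCAT4 at 0.73 ± 0.18.

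Salicylate and pipecolate genes rose for 8 of 25 and none fell, with a median of 2.59. CBP60G, a calmodulin-binding activator of salicylate synthesis, rose by 5.10 ± 0.49 in the authors' deposited table. PBS3, which joins glutamate to isochorismate, rose by 4.79 ± 0.58, and FMO1, which makes N-hydroxypipecolate, by 2.81 ± 0.29. DLO1, which hydroxylates salicylate, rose by 3.38 ± 0.33, and WRKY70, a salicylate response factor, by 0.86 ± 0.16.

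Receptors and channels at the cell surface were divided. Cysteine-rich receptor-like kinases rose for 8 and fell for 3 of 37, and the 3 that fell were CRK29, CRK26 and CRK28 at -0.95, -0.77 and -0.74 in the authors' deposited table. CRK18 rose by 2.57 ± 0.33. WAK3, a wall-associated kinase, rose by 4.89 ± 0.67, and WAKL10 by 3.37 ± 0.35. Glutamate receptor-like channels rose for 6 and fell for 4 of 16, all 6 that rose being of clades 1 and 2. GLR2.5 rose by 2.4 ± 0.23 in the authors' deposited table, whereas GLR2.3 fell by 4.59 ± 0.35. Leucine-rich repeat receptor kinases rose for 10 and fell for 15 of 176.

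WRKY factors, which bind the W box, rose for 11 and fell for 3 of 67. WRKY46 rose by 1.76 ± 0.35 and WRKY33 by 0.78 ± 0.11 in the authors' deposited table, and WRKY54 fell by 1.09 ± 0.22. The W box was searched for as TTGACC or TTGACT on both strands in the same 250 bases. It is held by 28.4% of all protein-coding genes, 38.9% of those that rose and 26.5% of those that fell. Among protein-coding genes that rose by at least 2 the share was 53.8%. The G box CACGTG is held by 6.49% of all promoters, 10.6% of those that rose and 6.48% of those that fell.

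Copper deficiency genes fell and copper proteins rose. Plants short of copper use SPL7, a transcription factor, to switch on copper uptake, an iron superoxide dismutase and microRNAs that remove the RNAs of copper proteins. Of 20 genes of this response, 11 fell and 1 rose, with a median of -2.21 among called members in the authors' deposited table. Of 13 copper proteins and microRNA targets, 5 rose and none fell. SPL7 itself was not listed.

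The uptake genes come first. FRO4 (chromosome 5, 8098052 to 8101323, minus strand), a metal reductase of the root surface, fell by 4.50 ± 0.31 in the authors' deposited table, and its neighbour FRO5 fell by 6.99 ± 1.15. FRO4 and FRO5 are near copies of each other, so how reads were divided between them is uncertain. COPT2 (chromosome 3, 17268875 to 17269510), a copper transporter, fell by 2.51 ± 0.28, and ZIP2, a metal transporter, by 1.16 ± 0.11. AT1G71200, a bHLH family protein on chromosome 1 at 26835973 to 26837308, fell by 4.97 ± 0.63 in the authors' deposited table. The exception was COPT1, another copper transporter, which rose by 0.75 ± 0.21.

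The switch of superoxide dismutases had opposite signs. FSD1 (chromosome 4, 12884300 to 12887011, minus strand), the iron enzyme, fell by 2.53 ± 0.16 in the authors' deposited table. CSD1 (chromosome 1, 2827061 to 2829315), the cytosolic copper/zinc enzyme, rose by 1.70 ± 0.17, and CCS, the chaperone that gives copper to it, by 0.58 ± 0.13. ARPN, a plantacyanin, rose by 1.12 ± 0.14. The laccases LAC12 and LAC13, which carry copper, rose by 1.75 ± 0.34 and 1.07 ± 0.18.

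MicroRNA genes fell at 6 loci and rose at none of 326 annotated, a called share of 1.84%, beside 4.33% of all genes tested that fell. How many of the 326 were tested is unknown, so the 2 shares cannot be compared. In WT 6 of them rose and 1 fell, and the interaction called 2 of the 326. Of the 6 loci here, 3 belong to the copper response. Libraries of total RNA read the precursor transcripts, not the mature microRNAs. MIR408 (chromosome 2, 19319780 to 19321026) fell by 3.03 ± 0.42 in the authors' deposited table. MIR398B fell by 1.91 ± 0.27, and MIR398C by 1.4 ± 0.34. The others were MIR169j at -2.92 ± 0.85, MIR169n at -1.93 ± 0.53 and MIR166f at -2.02 ± 0.59 in that table. Mature sequences from RefSeq are printed with the seed, bases 2 to 8, in capitals, to show which loci make the same product.
MIR408: aUGCACUGccucuucccuggc
MIR398B: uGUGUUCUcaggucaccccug
MIR398C: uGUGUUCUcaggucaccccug
MIR169j: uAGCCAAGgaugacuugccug
MIR169n: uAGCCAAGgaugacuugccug
MIR166f: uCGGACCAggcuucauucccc
MIR398B and MIR398C make 1 mature sequence, as do MIR169j and MIR169n, so the 6 loci make 4 products with 4 seeds. CSD1 and CCS are known targets of miR398, and ARPN and LAC13 of miR408. All 4 rose while the precursors fell, and CSD2, another target of miR398, was listed at 0.70 with an adjusted p of 0.0569 (limma), which missed the threshold. LAC12, another laccase of the list of copper proteins and microRNA targets, also rose here, and its WT value is given below. MIR398B and MIR398C may also share reads.

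GTAC is the core of the motif that SPL7 binds. It was counted on both strands in the 250 bases upstream of the gene start, and 34.3% of protein-coding genes hold it at least once, 36.2% of those that rose and 35.4% of those that fell. MIR398B holds it 5 times, MIR408 4 times, and MIR398C, ZIP2 and YSL2 3 times each. FSD1 and CCH hold it once, and FRO4, FRO5, AT1G71200, COPT2 and COPT1 not in this window. Of all protein-coding promoters, 0.266% hold it 4 or more times. RefSeq starts the MIR408 locus at 19319814, inside the deposited gene, which starts at 19319780. The MIR408 stretch thus runs into that gene, and whether the microRNA stretches are promoters was not tested. Their counts therefore cannot be compared with that 0.266%. Both microRNA stretches and the last 120 bases of YSL2 are shown with GTAC in capitals, since they hold several copies.
MIR408, chr2:19319564-19319813, plus strand: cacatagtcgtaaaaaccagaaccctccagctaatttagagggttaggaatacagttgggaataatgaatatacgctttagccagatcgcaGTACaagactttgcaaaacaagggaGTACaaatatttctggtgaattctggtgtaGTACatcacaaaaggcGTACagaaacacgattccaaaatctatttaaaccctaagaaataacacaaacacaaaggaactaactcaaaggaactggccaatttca
MIR398B, chr5:4690772-4691021, plus strand: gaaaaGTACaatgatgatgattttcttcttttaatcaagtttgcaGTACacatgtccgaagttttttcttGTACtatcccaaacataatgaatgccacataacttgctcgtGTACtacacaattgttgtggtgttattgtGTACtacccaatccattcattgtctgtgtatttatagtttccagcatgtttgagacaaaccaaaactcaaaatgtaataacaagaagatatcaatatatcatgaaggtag
YSL2, chr5:8323775-8323894, plus strand: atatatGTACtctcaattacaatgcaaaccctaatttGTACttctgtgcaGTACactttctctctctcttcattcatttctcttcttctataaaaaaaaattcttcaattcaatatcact
YSL2, a transporter of metal chelates, fell by 0.58 ± 0.09 in the authors' deposited table, and CCH, a copper chaperone, by 0.71 ± 0.08. Both changes are small beside those of the microRNA loci.

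In WT, copper deficiency genes rose for 4 and fell for 2 of 20, and copper proteins rose for 1 and fell for 5 of 13, from a comparison that shares no samples with the trm4b-1 one. The 1 of these 13 that rose in WT was LAC12, by 2.91 ± 0.31, against 1.75 here. The interaction called 9 of the 20 and 3 of the 13 at an adjusted p under 0.05, against 0.318% of all genes tested. FSD1 is not listed in WT, its rebuilt value, from the authors' deposited tables, was 0.16 ± 0.15, and the interaction was -2.69 (adjusted p 4.04e-05, limma). FRO4 had a rebuilt WT value of -0.35 ± 0.17 and AT1G71200 of 0.65 ± 0.35. MIR408 rose by 0.89 ± 0.24 in WT in the authors' deposited table, against -3.03 in the libraries labelled trm4b-1. CSD1 had a rebuilt WT value of -0.35 ± 0.17 against 1.70, and CCS fell by 0.64 ± 0.14 in WT. On paraquat, the authors' deposited table lists trm4b-1 minus WT as -2.48 for FSD1 and 1.52 for CSD1, a comparison that shares samples with the one here.

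**Figure D3:**
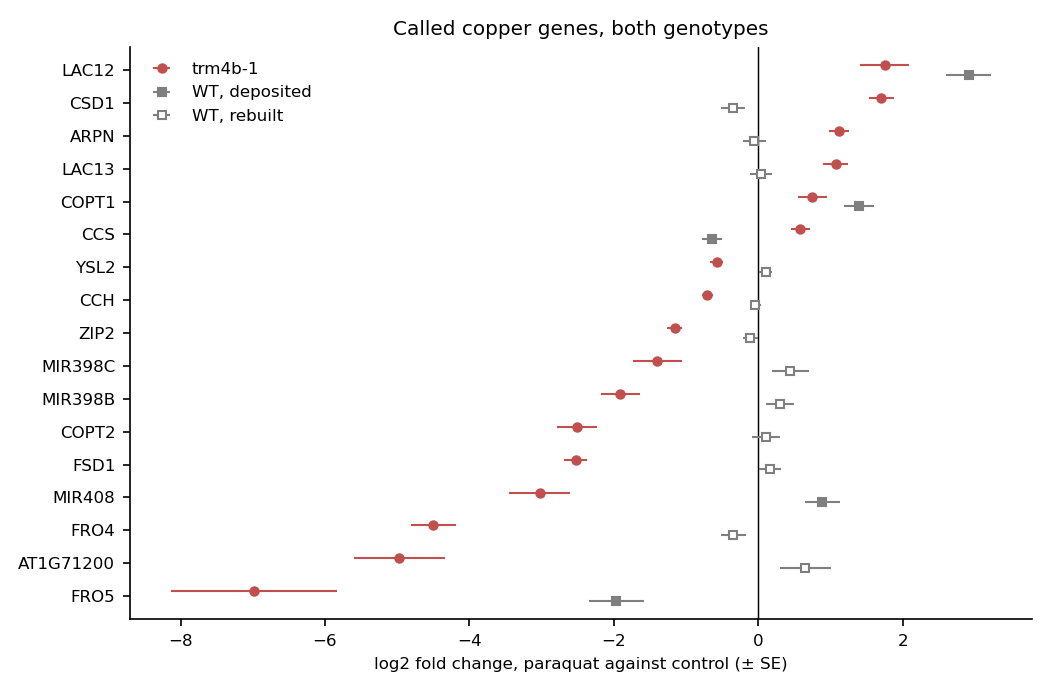
Log2 change with paraquat (horizontal axis, ± SE) of called copper genes in the libraries labelled trm4b-1 (red) and in WT (grey), deposited or rebuilt. FSD1 lies at -2.53 against 0.16 and MIR408 at -3.03 against 0.89, while CSD1 lies at 1.70 against -0.35.

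Iron genes rose for 11 and fell for 7 of 39. The bHLH factors of subgroup Ib, which act with FIT in iron uptake, were higher, with BHLH39 up by 1.25 ± 0.14 and BHLH38 by 1.23 ± 0.20 in the authors' deposited table. FIT itself fell by 0.91 ± 0.10. OPT3, an iron transporter of the phloem, rose by 1.92 ± 0.17, and F6'H1, which makes the coumarins that solubilise iron, by 1.36 ± 0.12. VTL2, a vacuolar iron transporter, fell by 1.79 ± 0.26 and FER4, a ferritin, by 0.79 ± 0.12 on the log2 scale. FRO2, the main ferric reductase, fell by 0.55 ± 0.15 here and rose by 1.04 ± 0.16 in WT in the authors' deposited tables, with an interaction of -1.60 (adjusted p 0.00319, limma). Under control conditions FRO2 was listed as 1.48 higher in trm4b-1 than in WT, and on paraquat it was not listed as different.

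Zinc and manganese transport genes and metallothioneins rose for 3 and fell for 4 of 24. MT2A, a metallothionein that binds metals in the cytosol, fell by 1.37 ± 0.13 in the authors' deposited table, and its relative MT1C fell by 1.77 ± 0.18. MT1C is not listed in WT and had a rebuilt value of 0.06 ± 0.18. ZIP1, ZIP4 and ZIP5, zinc transporters, rose by 0.76, 0.63 and 0.63.

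Counts for nutrient genes differed by element. Phosphate starvation genes rose for 10 and fell for none of 25, with a median of 1.43. PS3, a glycerol-3-phosphate transporter, rose by 2.51 ± 0.13 in the authors' deposited table, PHT1;4, a phosphate importer, by 1.56 ± 0.12, and SPX1, a phosphate sensor, by 1.45 ± 0.22. Sulfate genes rose for 10 and fell for 3 of 33. APR1, which reduces activated sulfate, rose by 1.11 ± 0.13 and LSU1, a low-sulfur response protein, by 1.22 ± 0.22 in that table.

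Nitrate and ammonium genes rose for 4 and fell for 11 of 47. NRT1.1, the nitrate transceptor, fell by 0.88 ± 0.13 in the authors' deposited table, NIR1, the nitrite reductase, by 0.84 ± 0.15, and HRS1, a nitrate-induced repressor, by 0.82 ± 0.09. NIA2, a nitrate reductase, rose by 0.70 ± 0.15. Carbon starvation and amino acid catabolism genes fell for 9 and rose for none of 36, with DIN10 at -1.33 ± 0.24 in that table. In WT 20 of these 36 fell and 2 rose, and the interaction called 1 of the 36. Sugar transporters rose for 3 and fell for 4 of 37, with SWEET14 at 2.79 ± 0.44 and PMT6 at -1.43 ± 0.14 in the authors' deposited table.

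Clock genes moved by phase. The plant clock is a loop of factors made at dawn, such as CCA1 and LHY, and factors made at dusk, such as TOC1 and the evening complex of ELF3, ELF4 and LUX, which repress each other's genes. Of 14 morning genes 8 rose and 1 fell, with a median of 2.00, and of 12 evening genes 9 fell and none rose, with a median of -1.77 in the authors' deposited table. The labels give no time of day of harvest, so a shift of phase and a difference in harvest time between the groups cannot be told apart.

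CCA1 (chromosome 2, 19245672 to 19248914) rose by 2.98 ± 0.21 in the authors' deposited table, and LHY by 2.69 ± 0.18. LNK2, a coactivator of afternoon genes, rose by 2.1 ± 0.11, and PRR9, a repressor of the early day, by 2.00 ± 0.18. RVE2 was the morning gene that fell, at -0.96 ± 0.18. Among evening genes FKF1 (chromosome 1, 25508676 to 25510889), a blue light receptor, fell by 4.17 ± 0.29, ELF4 by 3.12 ± 0.22 and PRR5 by 1.93 ± 0.13 in that table. GI fell by 0.74, the smallest of the 9 falls.

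The evening element AAAATATCT, read on both strands, is held by 2.36% of all protein-coding promoters, 2.42% of those that rose and 5.62% of those that fell. Of the 9 evening genes that fell, 5 hold it, and of the 8 morning genes that rose, none. The last 120 bases before LUX and BOA, its close relative, are shown because both hold the element near the gene start, in capitals, on opposite strands.
LUX, chr3:17182922-17183041, plus strand: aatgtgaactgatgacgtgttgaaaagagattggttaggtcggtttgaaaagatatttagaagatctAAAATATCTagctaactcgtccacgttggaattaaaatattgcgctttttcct
BOA, chr5:24003768-24003887, plus strand: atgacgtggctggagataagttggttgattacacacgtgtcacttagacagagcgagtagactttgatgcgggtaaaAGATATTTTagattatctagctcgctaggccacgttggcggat
LUX fell by 1.67 ± 0.13 and BOA by 1.29 ± 0.25 in the authors' deposited table. The nearest base of the element lies 44 and 34 bases from the gene start.

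Clock outputs rose for 5 and fell for 4 of 15. AT4G33980 fell by 4.25 ± 0.35 in the authors' deposited table, and GRP7, an RNA-binding protein under clock control, by 1.94 ± 0.15. CDF3, a cycling DOF factor, rose by 1.12 ± 0.11. In WT the morning genes also rose for 8 and fell for 1, and the evening genes fell for 9, and none of these clock genes was called in the interaction. TOC1 fell by 1.77 ± 0.10 here and by 1.85 ± 0.10 in WT in the authors' deposited tables. LHY rose by 2.69 and 1.49, and its interaction of 1.21 missed the threshold (adjusted p 0.0587, limma).

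**Figure D4:**
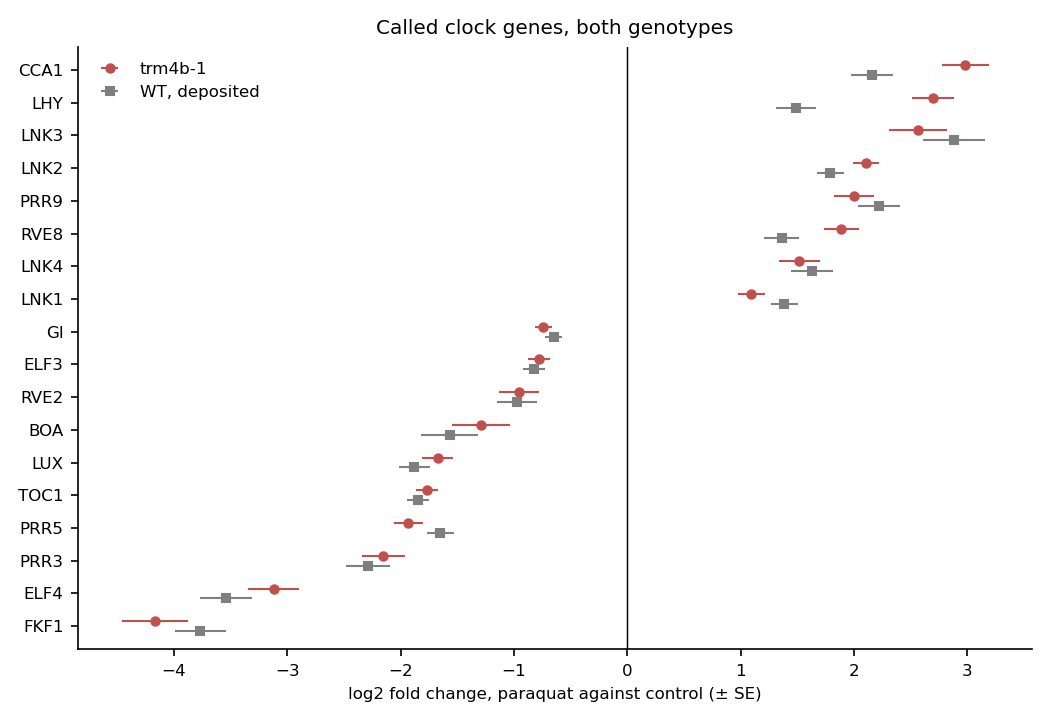
Log2 change with paraquat (horizontal axis, ± SE) of called clock genes in the libraries labelled trm4b-1 (red) and in WT (grey), from the authors' deposited tables. CCA1 is highest at 2.98 and FKF1 lowest at -4.17, and both genotypes keep the same sign for each gene shown.

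Growth lists covered the cell cycle, walls, water channels and ribosomes. Cyclins, their kinases and DNA replication genes fell for 12 and rose for 2 of 55, with CYCD1;1 at -0.94 ± 0.18 in the authors' deposited table and KNOLLE, the syntaxin of the cell plate, at -0.59 ± 0.10. Cellulose synthesis genes fell for 7 and rose for none of 18, between -0.41 and -0.30, with KOR1, an endoglucanase, at -0.41 ± 0.08. Expansins, which loosen walls, rose for 5 and fell for 1 of 36. EXPA1 rose by 1.29 ± 0.14 and EXPA17, known from lateral roots, fell by 1.35 ± 0.14 in that table.

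Aquaporins, the channels for water, fell for 6 and rose for 2 of 31, with TIP2;3 at -1.59 ± 0.14 and PIP2;4 at -0.92 ± 0.17 in the authors' deposited table, while PIP2;5 rose by 1.66 ± 0.35. Xyloglucan endotransglucosylases rose for 2 and fell for 3 of 32, and XTH29 rose by 3.45 ± 0.67. Lignin genes rose for 3 of 24 here, a called share of 12.5% beside 9.05% of all genes tested, with CAD5 at 0.69 ± 0.10 in that table. They fell for 7 in WT, but none of the 24 was called in the interaction. TUB9 was the only tubulin called of 15, or 6.67%, at -1.0 ± 0.07 in the authors' deposited table. Ribosome biogenesis genes rose for 4 of 42, a called share of 9.52% that is close to the 9.05% of all genes tested. In WT, where 17.0% of all genes tested were called, 23 of the 42 rose. No member of that list was called in the interaction.

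Markers of other cell types and of shoot tissue were counted, since the tables hold no levels against which the root label could be checked. Shoot photosynthesis markers rose for 1 and fell for 3 of 33, a called share of 12.1% beside 9.05% of all genes tested. In WT 25 of the 33 fell, but none of the 33 was called in the interaction. Root hair markers fell for 4 of 29, between -0.61 and -0.41 in the authors' deposited table, against 26 in WT, and the interaction called 5 of the 29. Of those that fell, RHS8, RHS10 and IRE were listed as already lower in trm4b-1 than in WT under control conditions. Their differences there were -0.58, -0.72 and -0.40, and ADF8 was not listed. Endodermis and suberin markers rose for 8 and fell for 1 of 30, with MYB41, a suberin regulator, at 1.18 ± 0.24 and CASP4, a Casparian strip protein, at -0.75 ± 0.16. In WT 3 of the 30 rose and 12 fell, but none of the 30 was called in the interaction. Phloem markers rose for 2 of 15, including SWEET13 at 2.58 ± 0.40, meristem markers fell for 1 of 13, and none of 8 root cap and 14 xylem markers was called. Called shares were 13.3% for phloem and 7.69% for meristem markers, beside 9.05% of all genes tested. The part of these cell type markers in the other results was not tested.

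Called shares of the hormone lists ran from 2 of 20 for polar auxin transport to 16 of 42, or 38.1%, for abscisic acid, beside 9.05% of all genes tested. Abscisic acid genes rose for 9 and fell for 7 of 42. HAI1 and HAB1, phosphatases that dampen the signal, rose by 2.53 ± 0.26 and 1.05 ± 0.11 in the authors' deposited table, while the receptors PYL6 and PYL5 fell by 1.34 ± 0.23 and 0.95 ± 0.23. CKX2, which degrades cytokinin, rose by 6.10 ± 0.59 (chromosome 2, 8444204 to 8447355), and the cytokinin response regulators ARR7 and ARR6 fell by 0.84 ± 0.19 and 0.59 ± 0.15. Gibberellin genes fell for 5 of 22, with GA3OX1, which makes the active hormone, at -0.71 ± 0.18 in that table.

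Auxin response genes rose for 5 and fell for 3 of 34, and GH3.3, which conjugates auxin to amino acids, rose by 1.95 ± 0.27 in the authors' deposited table. Jasmonate genes rose for 1 and fell for 3 of 29, with AOC2, a step of jasmonate synthesis, at -1.37 ± 0.31. Ethylene genes rose for 3 and fell for 3 of 30. ACO4, an oxidase that forms ethylene, rose by 0.70 ± 0.10 in that table.

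Of 108 NAC factors, 13 rose and 5 fell. NAC042, a regulator of camalexin genes, rose by 3.42 ± 0.20 in the authors' deposited table, and NAC074 fell by 1.73 ± 0.24. Ethylene response factors rose for 5 and fell for 8 of 108, with DREB2C at -1.68 ± 0.16. ERF71, known from hypoxia, rose by 2.11 ± 0.23 here and by 5.72 ± 0.39 in WT in the authors' deposited tables. Under control conditions ERF71 was listed as 3.85 higher in trm4b-1 than in WT, and on paraquat it was not listed as different. MYB factors rose for 5 and fell for 7 of 122, a called share of 9.84% that is close to that of all genes. The balance turned to higher under 3 other thresholds. It was 4 against 3 at an adjusted p under 0.01 and at a log2 size of at least 1. With the Storey q it was 11 against 8, counted among listed genes only. MYB15, a regulator of lignin in defence, rose by 3.21 ± 0.33. The bHLH family rose for 7 and fell for 8 of 121, a called share of 12.4%.

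Chaperones fold proteins in the endoplasmic reticulum and the cytosol. Of 25 genes of endoplasmic reticulum stress 15 rose and none fell, with a median of 0.73. BIP3, the stress-induced lumenal chaperone on chromosome 1 at 2929217 to 2931841, rose by 3.68 ± 0.57 in the authors' deposited table, and ERDJ3A, its cochaperone, by 1.87 ± 0.19. PDIL1-2, which forms disulfide bonds, rose by 1.12 ± 0.10 and CNX1, calnexin, by 0.75 ± 0.17. Heat shock proteins and factors of all compartments rose for 10 and fell for 2 of 38. The 10 include BIP1, BIP2 and BIP3, which are also counted in the endoplasmic reticulum list. HSP70 rose by 1.89 ± 0.17 and HSP90.1 by 1.57 ± 0.17 in that table, while the factor HSFA6B fell by 2.00 ± 0.42. DNA damage genes had 1 of 18 called, or 5.56% beside 9.05% of all genes tested, PARP2 at -0.65 ± 0.16.

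Transcripts of the mitochondrial genome rose for 44 and fell for none of the 67 genes listed in at least 1 of the 5 comparisons. The 44 rose by between 0.59 and 2.53, with a median of 0.95 in the authors' deposited table. Mitochondrial genes listed in no comparison are not counted, so this share cannot be set beside that of all genes tested. The nuclear stretch of chromosome 2 whose locus names start with AT2G07 holds copies of mitochondrial genes, and 64 of its 71 listed genes rose and none fell, with a median of 1.02. Reads of the copies and of the organelle cannot be told apart. Plastid genome transcripts, counted in the same way, fell for 2 of 39 and rose for none, against 13 that rose and 5 that fell in WT. None of the 39 was called in the interaction.

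Small nuclear RNAs act in splicing, and small nucleolar RNAs guide the modification of ribosomal RNA. Of 82 annotated genes for small nuclear RNAs 8 fell and none rose, with a median of -1.60 in the authors' deposited table. Of 287 for small nucleolar RNAs 11 fell and none rose, with a median of -1.55, beside 4.33% of all genes tested that fell. How many of the 82 and 287 annotated genes were tested is unknown, so their shares cannot be compared with that 4.33%. SNOR105 fell by 2.49 ± 0.30. In WT 8 small nuclear RNAs also fell, while 21 small nucleolar RNAs rose and 11 fell. Of the RNA cytosine methyltransferases, 3 of 8 rose, TRM4B as given above, AT4G26600 by 0.60 ± 0.12 and OLI2 by 0.44 ± 0.10 in that table.

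The response was set beside that of WT, for which the authors' deposited table calls 5711 genes, 17.0% of those tested, with 7.99% higher and 9.01% lower. Of the genes called in trm4b-1, 2190 were called with the same sign in WT, 72.0% of the calls here and 38.3% of the calls in WT. They comprise 1125 genes that rose in both and 1065 that fell in both. Over the 2203 genes called in both, Pearson's r between the log2 changes was 0.933 and Spearman's rho 0.942, as a description across genes that are not independent replicates. Among genes that rose in both, 509 of 1125 changed more in the libraries labelled trm4b-1, with medians of 0.91 and 0.96. Among genes that fell in both, 404 of 1065 did, with medians of -0.69 and -0.82. Recovered standard errors had medians of 0.144 here and 0.147 in WT. A gene called in 1 genotype and not in the other is not thereby shown to differ.

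The difference itself was tested by the deposited interaction. It called 107 genes, 0.318% of those tested, and 60 of them are called here, 1.97% of the calls. Of these 60, 33 rose and 27 fell. Among the 33, 12 rose less than in WT, 10 rose more and 11 had the opposite sign in WT. Among the 27, 19 had the opposite sign in WT, 4 fell more and 4 fell less. These signs are those of the rebuilt WT values, and only 13 of the genes with opposite signs were called in WT. Others had WT values close to 0, such as COPT2 at 0.11 ± 0.20 and MT1C at 0.06 ± 0.18, so their sign in WT is uncertain. Of the 2203 genes called in both genotypes 34 were called in the interaction.

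Opposite calls were few. Of the 2203 genes, 13 were called with opposite signs, 3 higher and 10 lower in the libraries labelled trm4b-1, and all 13 were called in the interaction. MIR408, CCS and FRO2 are given above. AT5G53230, which encodes a DUF295 protein, fell by 1.62 ± 0.33 here and rose by 3.62 ± 0.50 in WT in the authors' deposited tables. AT4G05380, a P-loop nucleoside triphosphate hydrolase, fell by 1.3 ± 0.31 and rose by 3.68 ± 0.45. Under control conditions the authors' deposited table lists both as higher in trm4b-1 than in WT, by 5.65 and 4.68.

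Other large differences ran in both directions. QQS, a gene that affects starch, rose by 2.51 ± 0.50 in the authors' deposited table and had a rebuilt WT value of -1.43 ± 0.58. AT3G21352 rose by 5.73 ± 0.46 against 2.56 ± 0.40 in WT in the authors' deposited tables. AT1G58983, annotated as a ribosomal protein, fell by 7.08 ± 0.55, with an interaction of -7.22. Under control conditions the authors' deposited table lists it as 7.33 higher in trm4b-1 than in WT. It belongs to near-identical copies, so its reads are uncertain.

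**Figure D5:**
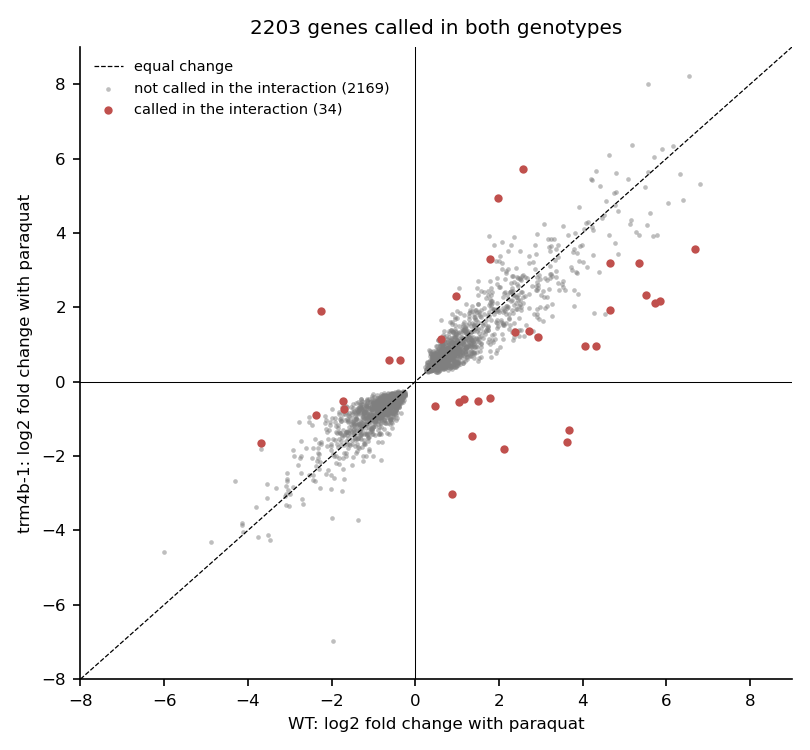
Log2 change with paraquat in WT (horizontal axis) against that in the libraries labelled trm4b-1 (vertical axis) for genes called in both, from the authors' deposited tables, with genes called in the interaction marked. Of the 2203 genes, 2190 lie in the quadrants of equal sign and 13 in those of opposite sign.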

How the data were processed

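Root RNA was sequenced after removal of ribosomal RNA, per the labels' protocols. The labels place the 12 samples in 4 groups of 3. Trimmomatic, TopHat, limma and the build TAIR10 appear in the submitters' processing notes with no version. The way reads were counted, with or without strand, and the treatment of weakly expressed genes were not given in the sources used here.

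Tables of 5 comparisons were deposited by the authors, and only genes with an adjusted p under 0.1 are listed in them. Per the file headers, each deposited table gives a log fold change, read here as log2 from limma's convention since no base is named, a p-value with its Benjamini-Hochberg adjustment, and a Storey q-value. Since no table has per-sample values, library depth is unknown, and no count test, left-out replicate, replicate block or filter on low values could be run. The design assumed counts, and the authors' limma results were used in their place.

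Adjusted p, rank and p together give the number of genes tested, 33602. In the 96 genes listed in all 3 tables, the interaction was equal to the trm4b-1 change minus the WT change, which also gave 15.3 total degrees of freedom and from them each standard error. The recovery was tested on simulated data. Counts per list stand beside the share of all tested genes that was called, since no test was run on the lists. Members of the organelle genome lists are genes listed in at least 1 comparison. Members of the other lists are annotated genes, whether or not they were tested. The members and the lists were chosen with earlier results of these data known. The list of cysteine-rich receptor-like kinases was taken from RefSeq descriptions, and a symbol that belongs to another gene was removed, after the tables were read.

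Named genes are TRM4B, the 15 largest changes in each direction, the 5 lowest adjusted p per direction, up to 5 called members per list and direction, and the 10 largest interaction differences, from which the text prints a selection. Genes that a background sentence introduces, members named only to show an overlap of reads, a promoter match or a WT value, list members below the fifth place and the genes at the threshold fall outside this rule and were chosen after their values were seen.

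RefSeq names of assembly TAIR10.1 matched 4032 of the 4087 listed genes (98.7%), and gene coordinates are those of the deposited tables. Promoters are the 250 bases upstream of each RefSeq gene start, and 120 of them are printed where shorter. Coordinates of the sequences are those of TAIR10.1. Reads of close paralogs, of overlapping genes and of antisense partners cannot be separated here. Alternatives run were an adjusted p under 0.01 or 0.1, a log2 change of at least 1, the Storey q, Holm adjustment, leaving out organelle genes, and rebuilt interaction and gene values. The promoter shares at an adjusted p under 0.01 were added after seeing the data. Calculations were made in R 4.3.3 with limma 3.58.1, for the simulated data alone, and in Python 3.11.15 with scipy 1.17.1, numpy 2.4.6, matplotlib 3.10.9 and pandas 2.3.3.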

Additional observations from a re-analysis of the deposited data

Results flagged for a closer look

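These results are given because the paraquat response differed between the genotypes in the deposited interaction (limma, adjusted p under 0.05), which is trm4b-1 minus WT on the log2 scale. It called 60 of the genes called here. Printed below are only those in the 70 lists or named by the rules above, so the rankings leave out others. Examples of those left out are RLP43 at -3.60 and AT1G52820 at 2.96. Negative differences, a more negative or less positive response under the trm4b-1 label, were led in the authors' deposited table by AT1G58983 at -7.22, AT1G71200 at -5.62, AT5G53230 at -5.24, AT4G05380 at -4.98 and FRO4 at -4.15. AT5G54560 followed at -3.93, MIR408 at -3.92, AT5G52940 at -3.67, ERF71 at -3.62 and NDB4 at -3.37. The authors' deposited table further gives AT2G04050 at -3.12, NDB3 at -3.11, AT2G21640 at -2.72, FSD1 at -2.69, COPT2 at -2.62 and MIR398B at -2.20. Smaller differences in that table were AT5G09570 at -2.17, MT1C at -1.82, FRO2 at -1.60, AT3G54530 at -1.46, CYP702A5 at -1.14, ZIP2 at -1.05, YSL2 at -0.68 and CCH at -0.66.

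Positive differences among the genes of those lists and rules were, in the authors' deposited table, AT4G37483 at 4.16, QQS at 3.94, AT3G21352 at 3.17 and CSD1 at 2.05. CCS stood at 1.22, ARPN at 1.17, TRM4B at 1.01, BXL1 at 0.96 and ATMG01130 at 0.79 in that table. The 60 genes include 9 copper deficiency genes and 3 copper proteins.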

How the results depend on the processing

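The count of 3040 called genes became 1730 at an adjusted p under 0.01, 1071 at a log2 size of at least 1 and 449 with Holm adjustment. It was 4087, all genes listed, at an adjusted p under 0.1. All 4087 also had a Storey q under 0.05, and the last listed had a q of 0.0371. Unlisted genes with a q between that value and 0.05 cannot be counted, so 4087 is a lower bound for the Storey q. Leaving out organelle genes gave 2994. Called list members fell from 660 to 439 at 0.01 and 279 at that size. Genes called with the same sign in WT fell from 2190 to 1241 and 681 in the same order. The 60 interaction calls became 26 at 0.01 and 118 at 0.1, and 22 when rebuilt from the 2 paraquat tables, which can use only the 2887 genes listed in both, where the deposited table calls 35. The W box share of genes that rose was 42.4% at 0.01. The balance of calls, higher minus lower, turned positive at a log2 size of at least 1 for nitrate genes (2), xyloglucan endotransglucosylases (2), aquaporins (1), bHLH factors (1), MYB factors (1) and shoot markers (1). For MYB factors it was also 1 at 0.01 and 3 with the Storey q, counted among listed genes only. These follow from which calls each threshold keeps. The 30 named gene values rebuilt from the WT comparison and the interaction equal the deposited ones by construction and say nothing of stability. No paired analysis was possible because the tables hold no values per sample, and leaving out each replicate and a filter on low values were not run for the same reason.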

Other observations

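Long non-coding RNA genes were called for 2 that rose and 16 that fell in the authors' deposited table, of 3480 in the annotation, with a median of -1.47 among the falls, and in WT for 2 and 39. Pseudogenes were called for 21 that rose and 3 that fell, of 3923. Both counts are small shares of the annotated genes, beside the 9.05% of all genes tested that were called. How many of the 3480 and 3923 were tested is unknown, so these shares cannot be compared with the 9.05%. By the authors' deposited table, 17 listed genes share both fold change and p-value exactly with another listed gene, and 5 of them are called. AGL105, NUB and AT3G28780 are each listed at 1.74 ± 0.52.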
